A study of Mus musculus with 6 samples.

Results

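Cartilage matrix is a collagen network filled with proteins and proteoglycans, and 10 genes that encode such non-collagen parts were followed here: Matn1, Matn3, Matn4, Comp, Hapln1, Acan, Ucma, Snorc, Chad and Cytl1. Their rows were taken by gene symbol, from a set chosen with earlier results of these data known. Of the 10 symbols, 9 matched a row of the deposited table of 23930 amplicons, and all 9 had a mean of at least 1 RPM (reads per 1000000 reads of the library), the level required for testing. Snorc had no row under that symbol. The row 3110079O15Rik, an older symbol of Snorc in RefSeq, is described apart and enters no count of the 9.

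Mouse embryos of stage E16.5 (embryonic) were used, and RNA of the humerus shaft gave 3 control and 3 knockout libraries. Controls carried the genotype Stat3C/+, meaning 1 conditional allele of the transcription factor gene Stat3 and no driver, although the labels also call them wild type. Knockouts were Prrx1Cre; Stat3C/C. Prrx1Cre is a recombinase driver active in limb bud mesenchyme, the source of limb cartilage, bone and tendon cells, while muscle fibres, blood and vessels come mainly from other precursors. Nothing in the labels ties a replicate to its own embryo, so p-values measure the spread between these libraries, which may be partly technical.

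In cartilage, aggrecan (Acan) is the large proteoglycan whose charged sugar chains hold water, and link protein (Hapln1) fastens it to hyaluronan. Matrilins (Matn1, Matn3, Matn4) and cartilage oligomeric matrix protein (Comp) are adaptors that join collagen fibrils to each other and to proteoglycans. Chondroadherin (Chad) is a leucine-rich protein that binds cells and collagen. Ucma and Snorc are small products of chondrocytes, and Cytl1 is a small secreted protein made by them. In a long bone such as the humerus this matrix is laid down by growth plate chondrocytes before bone replaces it.

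In knockout bone, 6 of the 9 genes fell, 1 rose and 2 did not pass the test (limma on log2(RPM + 1), Benjamini-Hochberg adjusted p under 0.05 over 12846 amplicons). Among all amplicons tested, 11.0% were called lower and 5.71% higher. Matn1 fell most and Hapln1 next, followed by Comp, Matn3, Matn4 and Acan. Chad was the gene that rose. The calls of Matn3, Matn4 and Acan were lost in 7, 10 and 10 of 16 alternative fits. The median log2 fold change of the 9 was -0.39, against -0.06 over all amplicons tested. Every knockout library lay below every control library for the 6 genes that fell, a pattern seen in 21.9% of amplicons tested. Every knockout library lay above every control for Chad, as in 11.9% of them. In bulk RNA, fewer cells of a type and less RNA per cell cannot be told apart.

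**Figure D1:**
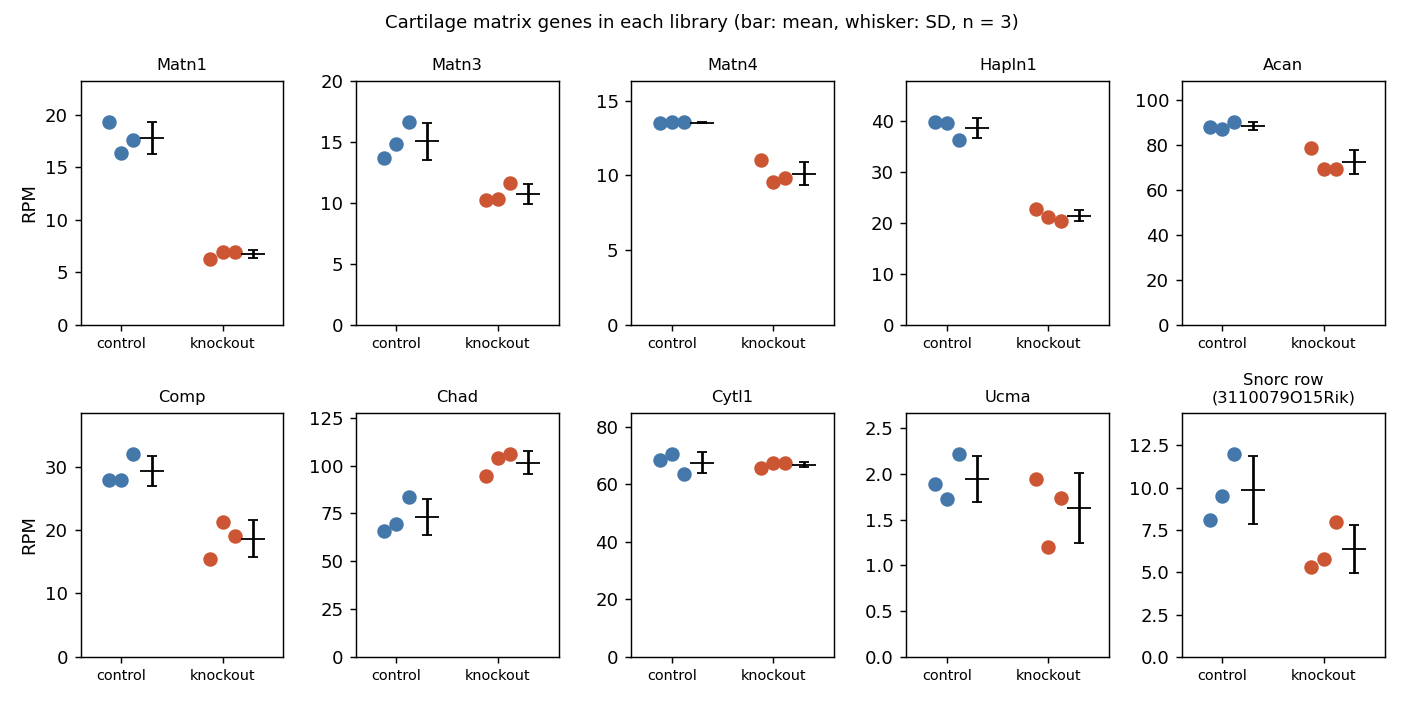
RPM of each gene (vertical axes, each starting at 0) in the 3 control libraries (blue) and 3 knockout libraries (orange), with the mean as a bar and the SD as whiskers. The groups are apart for Matn1, Matn3, Matn4, Hapln1, Acan, Comp, Chad and the row of Snorc, and they overlap for Cytl1 and Ucma.

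The libraries held 9126493 to 13376550 reads. Each gene was read at a single amplicon, so a value reports that short target, and levels of different genes are not strictly comparable. The sums over marker lists given below, and the part of a gene in them, carry this limit. A read was worth 0.0748 to 0.110 RPM. Acan had 635 to 1164 reads per library and Matn1 63 to 225, while Ucma had 11 to 27. Reads carried no molecular identifiers, so these numbers bear on counting error only. The Stat3 amplicon ranged from 201 to 211 RPM in controls and from 170 to 208 RPM in knockouts (log2 fold change -0.11, limma adjusted p = 0.380). Its place relative to the deleted part is not stated in these sources, so it checks nothing. Osteoblast markers such as Col1a1 and Sp7 and cartilage markers such as Col2a1 and Sox9 were read in every library.

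The 3 matrilins changed by different amounts. Matn1, the founding member of the family and a component of cartilage filaments, lies on chromosome 4 from 130944385 to 130955475 (GRCm38, GENCODE M21, plus strand). It was at 19.3, 16.3 and 17.6 RPM in control replicates 1 to 3 and at 6.27, 6.90 and 6.95 RPM in knockout replicates 1 to 3. The knockout libraries were close to one another, and all were far below the lowest control. The means were 17.7 ± 1.52 and 6.71 ± 0.382 RPM (SD, n = 3 each), a fall of 62.2%. The log2 fold change was -1.28 ± 0.14 (SE, limma adjusted p = 1.13e-06), and 0.148% of the amplicons tested had a lower one.

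Matn3, whose product binds collagens and Comp and is altered in a skeletal dysplasia, lies on chromosome 12 from 8947929 to 8972028 (plus strand). Its values were 13.7, 14.8 and 16.7 RPM in controls, against 10.2, 10.3 and 11.7 RPM in knockouts. The highest knockout library lay below the lowest control by less than the gap between the lowest and highest control. The log2 fold change was -0.45 ± 0.14 (SE, limma adjusted p = 0.0255). Matn4, a matrilin found in cartilage and other tissues, lies on chromosome 2 from 164389393 to 164405160 (minus strand). Its controls were nearly equal at 13.5, 13.6 and 13.6 RPM, and its knockouts were at 11.0, 9.53 and 9.81 RPM. The log2 fold change was -0.39 ± 0.13 (SE, limma adjusted p = 0.0487), which only just passed.

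The matrilins were also compared with each other within each library. On the log2(RPM + 1) scale, Matn1 minus Matn3 was 0.47, 0.13 and 0.07 in controls and -0.63, -0.52 and -0.67 in knockouts. The groups were apart, with a shift of -0.83. Matn1 minus Matn4 shifted by -0.89, also with groups apart. Matn3 minus Matn4 shifted by -0.06, and its groups overlapped. Relative to Matn3 and to Matn4, Matn1 was lower in every knockout library than in every control. With a pseudocount of 10 RPM these shifts were smaller, at -0.46 against Matn3 and -0.50 against Matn4, and the groups were still apart. By an exact two-sided permutation test p was 0.1 for the first pair and for the second, and 0.7 for the last (0.133, 0.133 and 0.7 adjusted over the 4 pairs compared). With 3 libraries a group the test cannot go below 0.1, so no pair could pass. The fourth matrilin, Matn2, is expressed in many tissues and was at 76.0, 79.6 and 85.9 RPM in controls, against 73.1, 72.4 and 72.7 RPM in knockouts (log2 fold change -0.14, limma adjusted p = 0.276). It was named after its values were seen.

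The sequence before the start site is shown for Matn1, the gene that fell most, for its relative Matn3, and for Chad, the gene that rose, so that genes that moved by different amounts stand side by side. Each line gives the 250 bases before the RefSeq start site (GRCm38.p6, 5′ to 3′ on the strand of the gene, plus for all of them), at chr4:130944135-130944384 for Matn1, chr12:8947679-8947928 for Matn3 and chr11:94564797-94565046 for Chad. Capitals mark a match to a searched motif.
Matn1: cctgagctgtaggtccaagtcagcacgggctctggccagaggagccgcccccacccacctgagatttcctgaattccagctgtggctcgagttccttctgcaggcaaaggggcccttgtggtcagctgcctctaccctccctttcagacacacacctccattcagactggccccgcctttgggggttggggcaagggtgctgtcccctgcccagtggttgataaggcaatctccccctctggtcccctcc
Matn3: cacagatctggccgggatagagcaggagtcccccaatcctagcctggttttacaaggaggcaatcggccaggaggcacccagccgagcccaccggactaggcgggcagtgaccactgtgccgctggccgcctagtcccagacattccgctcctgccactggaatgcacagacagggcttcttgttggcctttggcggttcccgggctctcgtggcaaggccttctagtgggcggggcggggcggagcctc
Chad: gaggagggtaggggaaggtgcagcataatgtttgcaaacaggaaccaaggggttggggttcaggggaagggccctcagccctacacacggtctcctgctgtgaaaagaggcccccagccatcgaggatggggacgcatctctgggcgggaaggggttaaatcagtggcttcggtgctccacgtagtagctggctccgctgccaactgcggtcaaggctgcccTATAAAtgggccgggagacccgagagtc

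RefSeq promoter windows were found for 8 of the 10 genes, 9 windows in all, since Matn4 had more than 1. Annotated exons overlapped the windows of Matn4 and Hapln1, and the other 6 windows held none. The letters searched on both strands were TTCNNNGAA (the STAT core, which reads the same on both strands), ACAAAG and ACAATG (cores bound by SOX factors) and TATAAA (the TATA box). The STAT core was in 0 of the 9 windows and in 7.02% of all 32851 windows of this length. ACAAAG was in 0 of the 9 and in 16.46% of all, and ACAATG in 0 of the 9 and in 10.7% of all. TATAAA was in 1 of the 9, that of Chad, at 28 to 23 bases before the start, and in 12.4% of all. These are descriptions of letters in short windows, and distal enhancers, which drive many cartilage genes, lie outside them.

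Both partners of the aggrecan aggregate, link protein and aggrecan, were called lower, the first under all 16 alternative fits and aggrecan with its call lost in 10 of them. Hapln1, on chromosome 13 from 89539796 to 89611652 (plus strand), was at 39.9, 39.5 and 36.3 RPM in controls, against 22.7, 21.1 and 20.4 RPM in knockouts. Each group was tight, and the groups were far apart. The means were 38.6 ± 1.97 and 21.4 ± 1.15 RPM (SD, n = 3 each), a fall of 44.4%, with a log2 fold change of -0.82 ± 0.11 (SE, limma adjusted p = 2.02e-05). Acan, on chromosome 7 from 79053483 to 79115099 (plus strand), was at 88.3, 87.0 and 90.5 RPM in controls, against 78.6, 69.6 and 69.2 RPM in knockouts. Knockout replicate 1 was nearest to the controls. The fall of the mean was 18.2% and the log2 fold change -0.29 ± 0.09 (SE, limma adjusted p = 0.0264).

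Hapln1 minus Acan was -1.13, -1.12 and -1.29 in controls and -1.75, -1.67 and -1.71 in knockouts on the log2(RPM + 1) scale. The groups were apart, with a shift of -0.53 (exact two-sided permutation test, p = 0.1, the smallest possible, and 0.133 adjusted over the 4 pairs). Hapln4, a link protein best known from brain, was also called lower. It was read at 3.18, 3.21 and 4.02 RPM in controls, against 2.29, 1.53 and 1.02 RPM in knockouts (log2 fold change -0.80, limma adjusted p = 0.0136). These low values lie near the mean of 1 RPM required for testing, and the call of Hapln4 was not followed through the alternative fits.

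Comp, a thrombospondin of cartilage and tendon that binds collagens, fell too. The gene lies on chromosome 8 from 70373558 to 70382066 (plus strand). Controls held 27.9, 28.0 and 32.0 RPM and knockouts 15.5, 21.3 and 19.1 RPM. Knockout replicate 1 was the lowest, and all 3 knockouts were below the controls. The fall of the mean was 36.4%, from 29.3 ± 2.36 to 18.6 ± 2.91 RPM (SD, n = 3 each), with a log2 fold change of -0.64 ± 0.13 (SE, limma adjusted p = 0.00144). Its relative Thbs3 went the other way, from 285 ± 8.97 to 354 ± 17.2 RPM (log2 fold change 0.31, limma adjusted p = 0.00580). Among 11 tested relatives of the 10 genes (matrilins, link proteins, lecticans, thrombospondins and others), 1 rose, Thbs3, and 1 fell, Hapln4, with a median log2 fold change of -0.13.

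Chad rose in every knockout library. The gene lies on chromosome 11 from 94565047 to 94569127 (plus strand). It was at 65.8, 69.4 and 83.6 RPM in controls, against 94.8, 103.9 and 106.2 RPM in knockouts. Control replicate 3 was the highest control and still below the lowest knockout. The means were 72.9 ± 9.42 and 101.6 ± 5.997 RPM (SD, n = 3 each), a rise of 39.4%. The log2 fold change was 0.48 ± 0.10 (SE, limma adjusted p = 0.00163), and 97.4% of the amplicons tested had a lower one. Chad is also made in tendon. Of 6 tendon markers, 2 rose (Scx, the tendon transcription factor, and Tnmd, tenomodulin, with log2 fold changes of 0.45 and 0.59), 1 fell (Kera, a keratan sulfate proteoglycan, -0.30) and 3 did not pass. None of the 6 was at 0, and their summed level was 2446 to 2576 RPM in controls and 3115 to 3479 RPM in knockouts. Tnmd alone made up most of that sum, with means of 1502 RPM in controls and 2257 RPM in knockouts. The part of the tendon markers in the rise of Chad and the fall of Comp was not tested.

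Cytl1 and Ucma did not pass. Cytl1, on chromosome 5 from 37735519 to 37739820 (plus strand), was at 68.3, 70.6 and 63.4 RPM in controls, against 65.8, 67.3 and 67.3 RPM in knockouts. All knockouts lay within the range of the controls. The log2 fold change was -0.01, with a 95% interval from -0.20 to 0.17 (limma adjusted p = 0.945). Ucma, a marker of the distal resting zone on chromosome 2 from 4976122 to 4985748 (plus strand), was read rarely, at 1.89, 1.72 and 2.22 RPM in controls, against 1.95, 1.21 and 1.74 RPM in knockouts. Its log2 fold change was -0.17, with a 95% interval from -0.61 to 0.27 (limma adjusted p = 0.637). This scale makes changes of so low a gene look smaller, so the interval does not bound the fall of Ucma against that of better read genes.

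The row under the older symbol of Snorc, a chondrocyte proteoglycan (gene on chromosome 1 from 87470271 to 87475482, plus strand), was at 8.08, 9.49 and 11.99 RPM in controls, against 5.33, 5.81 and 7.97 RPM in knockouts. The highest knockout was just under the lowest control. The log2 fold change of 3110079O15Rik was -0.56 ± 0.17 (SE, limma adjusted p = 0.0284). With it, 7 genes would be counted as lower.

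**Figure D2:**
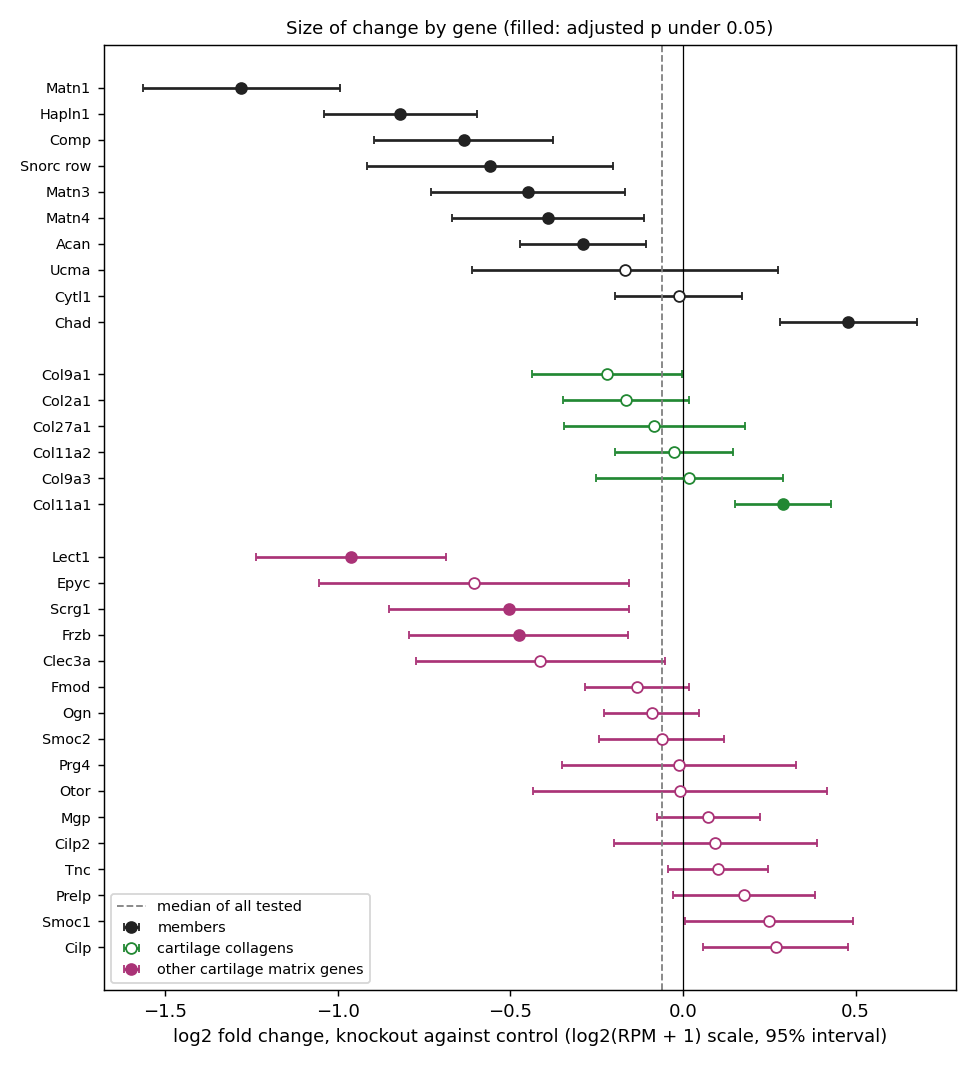
Log2 fold change of knockout against control (horizontal axis, log2(RPM + 1) scale) with its 95% interval for the genes followed here with the Snorc row, the cartilage collagens and other cartilage matrix genes. Filled points passed the test, and the dashed line is the median of all amplicons tested, -0.06. Matn1 lies farthest to the left at -1.28, and the collagens lie between -0.22 and 0.29.

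The collagens of the same matrix were read beside these genes. Of 6 tested cartilage collagens (Col2a1, Col9a1, Col9a3, Col11a1, Col11a2 and Col27a1), none was called lower and 1 was called higher. Their median log2 fold change was -0.05. Col9a1, named after its values were seen, was at -0.22, with a 95% interval from -0.44 to -0.003 (limma adjusted p = 0.155). Col2a1, the main collagen of cartilage, was at 139, 135 and 134 RPM in controls, against 137, 119 and 109 RPM in knockouts, with overlapping groups. Its log2 fold change was -0.17, with a 95% interval from -0.35 to 0.02 (limma adjusted p = 0.205). Col11a1, a chain of the collagen that nucleates cartilage fibrils and is also made outside cartilage, rose from 1009 ± 19.0 to 1233 ± 26.9 RPM (SD, n = 3 each, log2 fold change 0.29, limma adjusted p = 0.00493).

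Each gene was therefore set against the mean log2(RPM + 1) of Col2a1, Col9a1, Col9a2, Col9a3, Col11a1 and Col11a2 in the same library. Col9a2 was included although it was below the level required for testing, and Col27a1 was not part of this mean. That mean was 5.74 to 5.79 in controls and 5.60 to 5.82 in knockouts. Relative to it, 6 of 9 genes were lower with groups apart (16.4% of amplicons tested were), and 1 was higher (12.2% were). The shift was -1.25 for Matn1, -0.79 for Hapln1, -0.60 for Comp, -0.42 for Matn3, -0.36 for Matn4 and -0.26 for Acan, and it was 0.51 for Chad. For these 7 genes the exact two-sided permutation test gave p = 0.1 each, the smallest possible, and 0.129 adjusted over 9 genes. For Cytl1 the shift was 0.02 (p = 0.8 by the exact test) and for Ucma -0.14 (p = 0.7 by the exact test). Against Col2a1 alone, 4 genes were lower with groups apart, Matn1, Matn4, Comp and Hapln1, while Matn3 and Acan overlapped. There the shift of Matn4 was -0.23 and that of Acan -0.12. With a pseudocount of 10 RPM and all 6 collagens, the shift was -0.72 for Matn1, -0.26 for Matn3 and -0.22 for Matn4. The same 4 were lower with groups apart with a pseudocount of 0.1 RPM. The share of all amplicons with groups apart was not computed for Col2a1 alone or for the other pseudocounts. Those counts therefore have no background beside them.

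**Figure D3:**
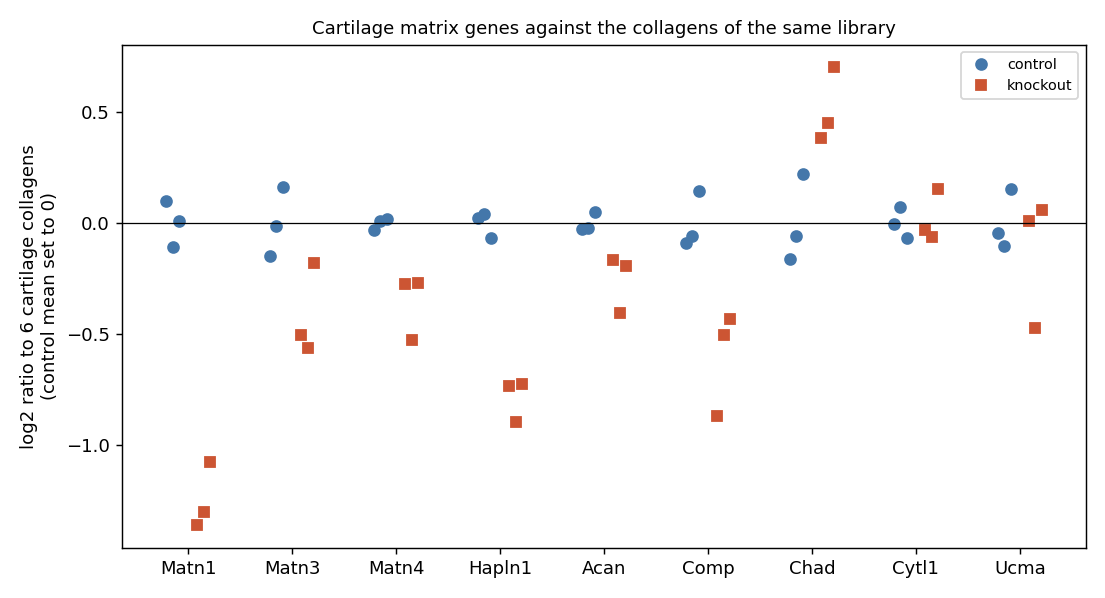
Log2 ratio of each gene to the mean of 6 cartilage collagens in the same library (vertical axis, control mean set to 0) in controls (blue circles) and knockouts (orange squares). The knockout libraries lie below all controls for Matn1, Matn3, Matn4, Hapln1, Acan and Comp, above them for Chad, and overlap them for Cytl1 and Ucma.

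Other non-collagen genes of cartilage were followed in a list of 22 symbols, of which 17 were tested. None rose and 4 fell, with a median log2 fold change of -0.06, the same as over all amplicons. Lect1, which encodes chondromodulin, an inhibitor of vessel growth in cartilage, fell from 18.7, 16.7 and 19.8 RPM to 9.06, 8.55 and 9.20 RPM (log2 fold change -0.96, limma adjusted p = 3.65e-05). Scrg1, a gene induced in chondrocyte differentiation, fell from 6.94 ± 1.19 to 4.56 ± 0.264 RPM (SD, n = 3 each, log2 fold change -0.50, limma adjusted p = 0.0423). The others that fell were the Snorc row and Frzb, a secreted Wnt antagonist named after its values were seen (-0.48). The groups of Frzb overlapped.

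Among 14 tested chondrocyte transcription factors 5 fell and 1 rose, with a median of -0.18. Of those that fell, Arid5b and Zfp219, named after their values were seen, only just passed (limma adjusted p = 0.0445 and 0.0451). The groups of Zfp219 overlapped. Mef2c, a driver of chondrocyte hypertrophy that is also a muscle and vessel gene, fell from 115 ± 23.9 to 63.4 ± 18.5 RPM, and Runx2, which acts in hypertrophic chondrocytes and osteoblasts, from 77.1 ± 2.22 to 49.9 ± 4.29 RPM. Barx2, a homeobox factor, rose from 13.5 ± 0.866 to 22.5 ± 1.23 RPM (SD, n = 3 each). Their log2 fold changes were -0.87, -0.62 and 0.69 (limma adjusted p = 5.80e-04, 8.84e-05 and 5.00e-04). Sox9, the master regulator of cartilage genes and named after its values were seen, was at 21.6, 21.6 and 21.2 RPM in controls, against 15.1, 16.4 and 17.1 RPM in knockouts (log2 fold change -0.39, limma adjusted p = 0.0274). Its cofactors Sox5 (0.18) and Sox6 (-0.17), chosen likewise, did not pass.

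Of 22 genes that build the sugar chains of aggrecan or make or bind hyaluronan, 4 fell and 1 rose, with a median log2 fold change of -0.03. Chsy1, a chondroitin synthase, fell from 68.4 ± 1.21 to 46.1 ± 2.32 RPM, and Ugdh, which makes a sugar precursor, from 62.3 ± 7.32 to 44.3 ± 5.08 RPM (SD, n = 3 each). Papss2, which makes the sulfate donor, was called lower at -0.42 with overlapping groups. Among 16 proteases and inhibitors of matrix 2 rose and 2 fell, with a median of -0.04. The aggrecan-cutting Adamts4 and Adamts5, named after their values were seen, did not pass (log2 fold changes 0.11 and 0.07). Mmp9, a gelatinase rich in osteoclasts, had a log2 fold change of 0.71, Mmp13, a collagenase of hypertrophic chondrocytes and osteoblasts, of -0.39, and the inhibitor Timp1 of -0.70, and all 3 passed.

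Some markers of the neighbouring cell types moved as well, and their part in the values of the matrix genes was not tested. The counts below stand beside 11.0% of all amplicons tested called lower and 5.71% called higher. No marker with a row in the table was at 0 in any library. Of 9 tested hypertrophic chondrocyte markers 8 fell, Panx3 (-1.50), Pth1r (-1.22) and Ibsp (-1.04) most. Col10a1, the collagen of that zone and named after its values were seen, did not pass (-0.18). Ihh was below the level required for testing. The summed level of the list was 9805 to 10921 RPM in controls and 7020 to 7085 RPM in knockouts. Most of that sum came from the bone matrix genes Ibsp (4328 RPM in controls and 2097 RPM in knockouts, means) and Spp1 (5417 and 4509 RPM), while Col10a1 was at 96.9 and 85.1 RPM. Of 9 osteoblast markers 6 fell, among them Sp7 (-0.75), and the sum was 46681 to 50546 RPM in controls and 40818 to 45278 RPM in knockouts. Col1a1 (28711 RPM in controls and 27669 RPM in knockouts, means) and Col1a2 (9982 and 9029 RPM) made up most of that sum, and neither passed. The hypertrophic and osteoblast lists both hold Alpl, Ibsp and Spp1. Runx2 of the osteoblast list and Mef2c of the hypertrophic list are also among the transcription factors above. Mmp9 is in both the protease and the osteoclast lists. The tendon list shares Thbs4 with the relatives and Fmod with the other cartilage genes, so the counts of these lists are not independent. Skeletal muscle markers fell in 3 of 10, Ttn (-0.56), Actn2 (-0.43) and Myh3 (-0.31), with sums of 28315 to 31852 and 25877 to 28010 RPM. Osteoclast and macrophage markers rose in 4 of 8 and fell in 2, with sums of 941 to 1025 and 1378 to 1398 RPM. Lyz2 (0.78), Mmp9 (0.71) and Calcr (-1.13) changed most. Mmp9 alone had means of 411 RPM in controls and 671 RPM in knockouts. Of those named after their values were seen, Cd68 (0.48) and Adgre1 (0.49) rose and Csf1r (-0.42) fell. Ctsk (0.07) and Acp5 (0.14), chosen likewise, did not pass. Fibroblast and perichondrium markers rose in 1 of 6, Col3a1 (0.49), and fell in 2, Pdgfra (-0.39) and Lum (-0.31). In this list Dcn (0.19), Dpt (0.15) and Postn (0.11), also named after their values were seen, did not pass. The sums of the fibroblast and perichondrium list were 7800 to 8752 RPM in controls and 9853 to 10256 RPM in knockouts. Col3a1 alone had means of 3410 and 4779 RPM. Endothelial markers fell in 2 of 5, Tek (-0.50) and Cdh5 (-0.31), with sums of 609 to 656 and 610 to 648 RPM. Pecam1 (0.21), Kdr (0.15) and Emcn (-0.02), named after their values were seen, did not pass. The median of the 5 was -0.015.

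The calls of Matn1, Hapln1, Comp and Chad held under all 16 alternative fits, whose adjusted p ranged up to 0.000663, 0.00300, 0.0260 and 0.0423. Those of the others did not. Calls of genes in the lists, other than the Snorc row, were not followed through these fits. The call of Acan was lost in 10 of 16 (adjusted p from 0.0181 to 0.106), with TMM or median-of-ratios scaling, edgeR, DESeq2, no variance trend, or leaving out any single library other than knockout replicate 1. The call of Matn4 was lost in 10 of 16 (0.0420 to 0.162), with either scaling, edgeR, DESeq2, no filter, or any single library left out other than knockout replicate 1. The call of Matn3 was lost in 7 of 16 (0.0201 to 0.0966), with median-of-ratios scaling, DESeq2, no filter, or without control replicate 2 or 3 or knockout replicate 1 or 2. For the Snorc row, 8 of 15 lost it (0.00980 to 0.132), with median-of-ratios scaling, DESeq2, no filter, no trend, or without any of the same 4 libraries. Lower calls over all amplicons went from 1409 to 928 and higher calls from 733 to 1042 with TMM scaling, where 7.22% and 8.11% of amplicons were called and 4 of 9 genes were lower. Lower and higher calls took 6.86% and 8.40% of amplicons with median-of-ratios scaling, 7.18% and 8.19% with edgeR, and 6.03% and 7.77% with DESeq2, where 3, 4 and 3 of the 9 genes were lower.

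**Figure D4:**
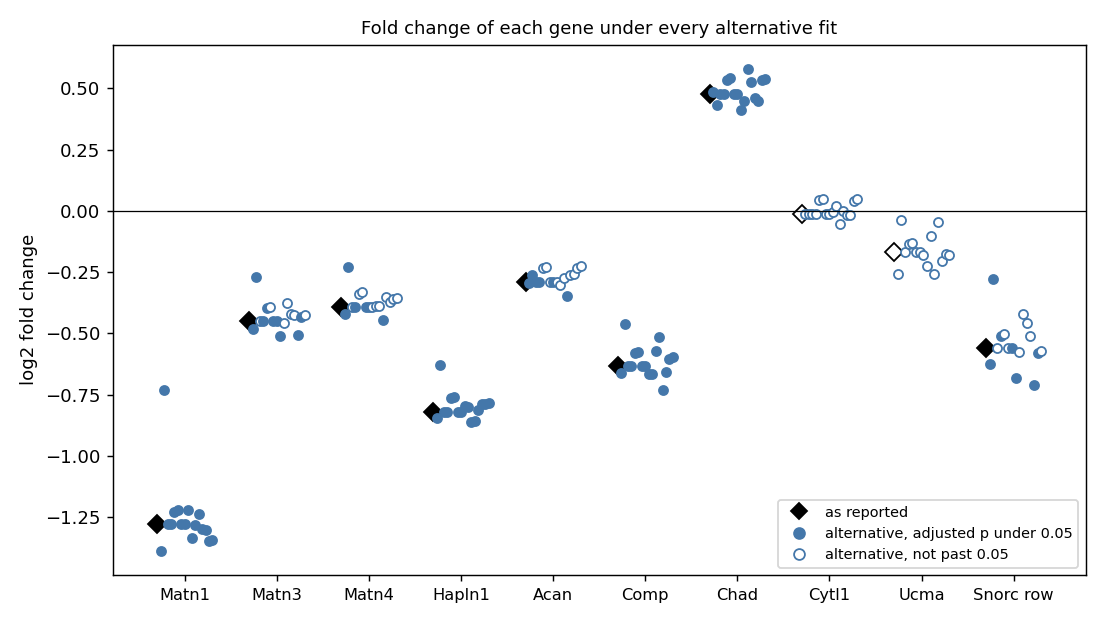
Log2 fold change of each gene (vertical axis) as reported (black diamonds) and under each alternative fit (circles, filled where the adjusted p was under 0.05). Matn1, Hapln1, Comp and Chad are filled throughout, and Matn3, Matn4, Acan and the Snorc row include open circles.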

How the data were processed

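RNA of the humerus shaft, 6 samples, was made into libraries by the Ion AmpliSeq mouse panel, per the labels' protocols. The authors deposited RPM values, and the sources used here do not give the aligner, counter or build. Whole reads were recovered from the RPM steps, and 100% of values above 0 were whole within 0.1 read. Groups came from the sample titles. Amplicons with a mean over all libraries of 1 RPM or more were compared as log2(RPM + 1) with limma 3.58.1 in R 4.3.3 (empirical Bayes with trend, two-sided, Benjamini-Hochberg, threshold 0.05), and the script was tested on simulated data. This scale makes the change of low genes look smaller. Libraries of 1 group differed beyond counting noise (chi-square per degree of freedom 4.33 to 7.38). Ratios within libraries used exact permutation tests (scipy 1.17.1). Alternatives were pseudocounts of 0.1 and 10 RPM, no filter or one at 10 RPM, TMM or median-of-ratios scaling, no variance trend, a replicate block, fits without each library in turn, and edgeR 4.0.16 and DESeq2 1.42.0 on recovered reads. The genes and lists were chosen with earlier results of these data known. Named genes were the 10 members, Stat3, Col2a1 and, per list, up to 3 called genes of greatest change. Counting the Snorc row was added after seeing the data. Gene positions are from GENCODE M21 (GRCm38), matched by symbol. Figures were drawn with matplotlib 3.10.9.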

Additional observations from a re-analysis of the deposited data

How the results depend on the processing

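Over all amplicons, 733 were called higher and 1409 lower. Higher calls were 361 without a variance trend, and lower calls were 634 there, 869 without a filter, 928 with TMM scaling, 881 with median-of-ratios scaling, 922 with edgeR (1052 higher) and 775 with DESeq2 (998 higher). Leaving out 1 library gave 442 to 705 higher and 729 to 1324 lower calls, and 3 to 5 lower and 1 to 1 higher of the 9 cartilage matrix genes. Lower calls among the 9 numbered 3 with median-of-ratios scaling and with DESeq2. The median-of-ratios factors were 1.01 to 1.03 in controls and 0.965 to 0.990 in knockouts. With them the median log2 fold change over all amplicons was -0.00245, against -0.0612 as reported. The cause of the lost calls was not tested. Cytl1, not called in any fit, changed sign to 0.0433 with TMM scaling, 0.0493 with median-of-ratios scaling, 0.0423 with edgeR and 0.0481 with DESeq2, and ranged from -0.0554 to 0.0207 with 1 library left out. With a pseudocount of 10 RPM the log2 fold change of Matn1 was -0.73, since a larger constant shrinks low genes. With the replicate number as a block, 836 were higher and 1626 lower, and of the 9 genes 6 were lower and 1 higher. Deviations of libraries with the same number correlated at 0.0126, -0.0193 and 0.107, against -0.0983 to 0.0979 for different numbers. Not every library correlated best with its own number. The labels do not say whether equal numbers pair samples, and so few correlations cannot decide it. Depth limits Ucma most, at 11 to 27 reads per library.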
